A study of Mus musculus with 16 samples.

Results

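The genes described here encode muscle ubiquitin ligases and components of autophagy, together with the FoxO factors that regulate both. They were taken by symbol from a fixed list and make up 10 of the 22372 protein-coding genes in the table: Trim63, Fbxo32, Trim54, Trim55, Sqstm1, Bnip3, Map1lc3a, Gabarapl1, Foxo1 and Foxo3. RNA came from a piece of ventricle of each C57BL/6J mouse. The animals were 10 to 12 weeks old when the experiment began, with no engineered allele named in the labels. Mice underwent transverse aortic constriction (TAC), in which a suture narrows the aortic arch and loads the left ventricle with pressure, or a sham procedure without the suture. Each surgery was combined with THZ1, a covalent inhibitor of the transcriptional kinases Cdk7, Cdk12 and Cdk13, or with vehicle, which gave groups of 4 mice named TAC-Veh, TAC-THZ1, Sham-Veh and Sham-THZ1. Injections into the peritoneum ran from postoperative day 1 up to day 60, at a label dose of 10 mg/kg given 2 times daily. The methods of the study describe daily injections with the same total dose per day. The drug reached the whole animal, so the groups do not isolate an action on heart muscle cells.

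Muscle loses protein by 2 routes. In the ubiquitin-proteasome system, E3 ligases pick the proteins to be tagged with ubiquitin, and in striated muscle the ligases MuRF1 (Trim63) and atrogin-1 (Fbxo32) are known as the atrogenes, since both are induced when muscle wastes. In autophagy, a membrane studded with lipid-linked Atg8-type proteins closes around cargo, receptors such as p62 (Sqstm1) tie the cargo to that membrane, and the lysosome degrades the content. FoxO transcription factors are kept out of the nucleus by insulin and Akt signalling, and when active they are known to induce atrogenes and autophagy genes in muscle.

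Sequencing depth was 21.4 to 35.8 M (mega) reads per library, counted in protein-coding genes, with a median of 28.1 M. The 10 genes held between 447 and 16716 reads in any library. Within the sham groups the coefficient of variation of a gene ran from 1.01% to 16.3%, and within the TAC groups from 2.69% to 47.9%. Values are normalized counts, which are reads divided by a size factor for each library. The labelled tissue bore its markers: the summed level of 10 cardiomyocyte markers was at least 904490 normalized counts in every library, while 8 skeletal muscle markers summed to at most 90.2 and 3 atrial markers to at most 82.3. Within TAC, some libraries stood apart. Replicate 1 of TAC-Veh had the most Nppa RNA, which encodes the natriuretic peptide of stressed heart muscle, with 199788 normalized counts against 49207 to 112703 in the other TAC-Veh libraries. Replicate 2 of TAC-Veh was the lowest of its group for 7 of the 10 genes, and replicate 3 of TAC-THZ1 was the lowest of its group for 8. Where leaving out 1 of these 3 libraries changed a call in the comparisons below, the value without it is given beside the result.

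Upstream sequence is shown for genes that the results turn on, from RefSeq on GRCm38.p6, a later build than that of the counts. Of the 10 genes, 7 had a sequence in that set. The 250 bases before the start were searched on both strands, with positions counted back from the base before the start as -1. The FoxO core was written as GTAAACA. The E-box, bound by basic helix-loop-helix factors, was written as CACGTG. The TATA box was written as TATAAA, and no match overlapped another. The antioxidant element, bound by Nrf2, was written as TGACNNNGC. Capitals mark the matches. Trim63, a known FoxO target, held the FoxO letters on the reverse strand at -194 and the TATA letters at -31, and Bnip3 held the E-box at -108. Sqstm1 and Gabarapl1, the pair that rose with TAC, held none of the 4 in this window and are shown over their last 100 bases. Trim54, Foxo1 and Foxo3 also held none of the 4 and are not shown. Other spellings of these elements were not searched. Over all 32851 promoters of that length, 3.17% held the FoxO letters, 6.02% the E-box, 12.4% the TATA letters and 10.2% the antioxidant letters. A match is a description of the letters, and no binding was measured in these libraries.
Trim63, chr4:134314870-134315119, plus strand: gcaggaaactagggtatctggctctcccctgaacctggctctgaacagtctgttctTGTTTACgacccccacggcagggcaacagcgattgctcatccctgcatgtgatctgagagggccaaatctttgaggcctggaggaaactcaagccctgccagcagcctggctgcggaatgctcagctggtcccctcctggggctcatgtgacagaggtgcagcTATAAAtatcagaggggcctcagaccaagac
Bnip3, chr7:138909507-138909756, minus strand: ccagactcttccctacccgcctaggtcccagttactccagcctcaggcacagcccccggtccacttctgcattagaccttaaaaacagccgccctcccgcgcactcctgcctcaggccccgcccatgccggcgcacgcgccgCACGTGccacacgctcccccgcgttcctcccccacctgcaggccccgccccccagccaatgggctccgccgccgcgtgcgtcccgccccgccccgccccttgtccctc
Sqstm1, chr11:50210821-50210920, minus strand: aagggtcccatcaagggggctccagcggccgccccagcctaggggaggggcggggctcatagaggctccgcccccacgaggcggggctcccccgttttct
Gabarapl1, chr6:129533092-129533191, plus strand: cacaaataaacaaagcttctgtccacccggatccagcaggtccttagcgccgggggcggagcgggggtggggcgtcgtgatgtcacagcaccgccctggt

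Compared per kilobase of exon, the 10 genes covered a wide range in Sham-Veh. Map1lc3a was highest with 6192 ± 202 normalized counts per kilobase (SD, n = 4), then came Trim54 with 3267 ± 154 and Sqstm1 with 2809 ± 104. Bnip3 (1784 ± 52.2) and Trim63 (1616 ± 92.2) followed without overlap of their ranges, and Gabarapl1 stood at 1255 ± 12.7. The place of Bnip3 is uncertain in every group, since 51.3% of its read-length exon windows also occur elsewhere in the genome. How such reads were counted was not given, as described below. Fbxo32 (722 ± 84.2) and Trim55 (696 ± 46.3) overlapped. The FoxO genes were lowest, with 334 ± 54.3 for Foxo3 and 122 ± 5.35 for Foxo1. With Bnip3 taken at these uncertain values, the first 4 places were the same in all groups, by their means, but ranges overlapped in the TAC groups. In TAC-Veh those of Trim54 (3058 to 3991), Sqstm1 (3562 to 3784) and Bnip3 (2006 to 4695) overlapped. In TAC-THZ1 Trim54 (3262 to 4423) overlapped Sqstm1 (2444 to 3603), which overlapped Bnip3 (1719 to 3268). Gabarapl1 stood above Trim63 by its mean in both TAC groups.

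**Figure D1:**
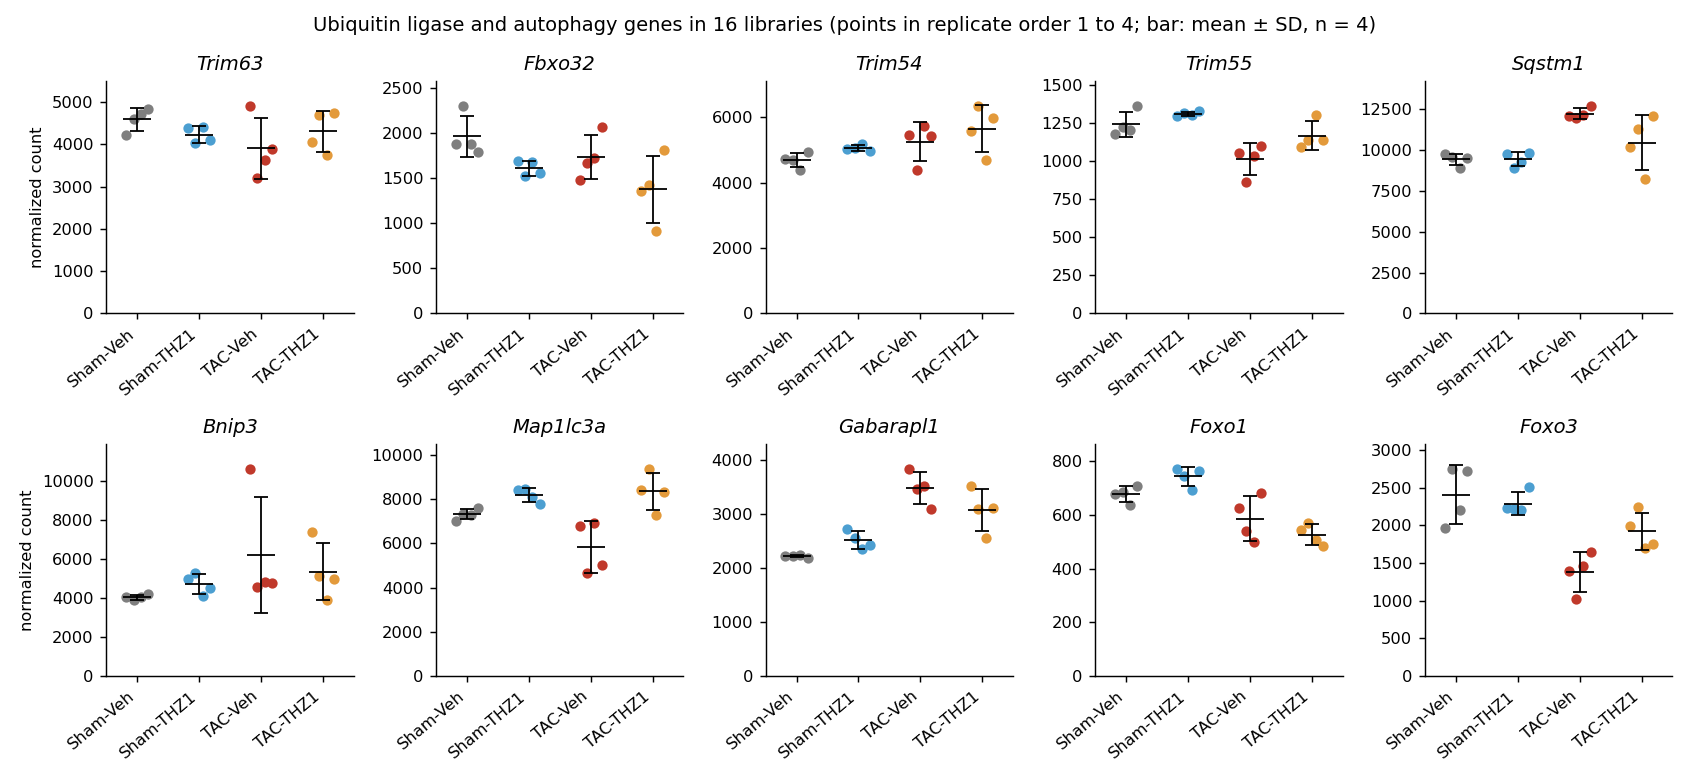
Normalized counts of the 10 genes in each of the 16 libraries (vertical axes, each starting at 0), by group (horizontal axes); points follow replicate order 1 to 4, and bars give the mean ± SD. Gabarapl1 and Sqstm1 lie higher in TAC-Veh than in any Sham-Veh library, Foxo3 lies lower, and 1 TAC-Veh library carries 10633 normalized counts of Bnip3.

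TAC-Veh against Sham-Veh asks how these genes respond to pressure overload. Of the 10 genes, 5 passed an adjusted p of 0.05 in limma, against 45.0% of the 13331 genes tested. The 2 that rose were Gabarapl1 and Sqstm1 (21.4% of all genes rose), and the 3 that fell were Foxo3, Map1lc3a and Trim55 (23.6% of all genes fell). The share of the 10 genes was thus near that of all genes, and the result lies in which of them moved and which way. The values of TAC-Veh and Sham-Veh did not overlap for 6 of the 10 genes (37.3% of all genes), namely the 5 called and Bnip3. None of the 10 genes reached a log2 fold change of 1 in size. The median was -0.20 over the 10 genes and -0.003 over all genes.

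THZ1 given to mice with TAC was compared with vehicle in mice with TAC. Here 3 of the 10 genes were called, against 29.4% of all genes, and all 3 were higher in TAC-THZ1: Map1lc3a, Foxo3 and Trim55 (15.1% of all genes were higher and 14.2% lower). These are the genes that were lower in TAC-Veh than in Sham-Veh. Both comparisons use the same TAC-Veh libraries, so opposite signs between them are not independent of each other. The groups were apart for Map1lc3a and Foxo3 (20.0% of all genes were apart). The medians were -0.02 over the 10 genes and 0.015 over all genes.

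The remaining comparisons called fewer of them. TAC-THZ1 differed from Sham-THZ1 in 2 genes, Gabarapl1 higher and Foxo1 lower (24.2% of all genes were called, 11.4% higher and 12.8% lower), and only Foxo1 had groups that did not overlap (33.4% of all genes). THZ1 in sham mice gave no call in limma among the 10 genes, against 0.0675% of all genes. An unadjusted p under 0.05 was found for none of the 10 and for 917 of the 13331 genes tested. DESeq2 and the quasi-likelihood test of edgeR on the recovered reads also called none. The values of Sham-THZ1 and Sham-Veh nevertheless did not overlap for 4 genes, Fbxo32, Trim54, Map1lc3a and Gabarapl1, against 11.3% of all genes. Fitting the 8 sham libraries by themselves called 3 of these, Map1lc3a and Gabarapl1 higher and Fbxo32 lower. How many of all genes that fit called was not tallied, so the 3 have no background beside them.

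**Figure D2:**
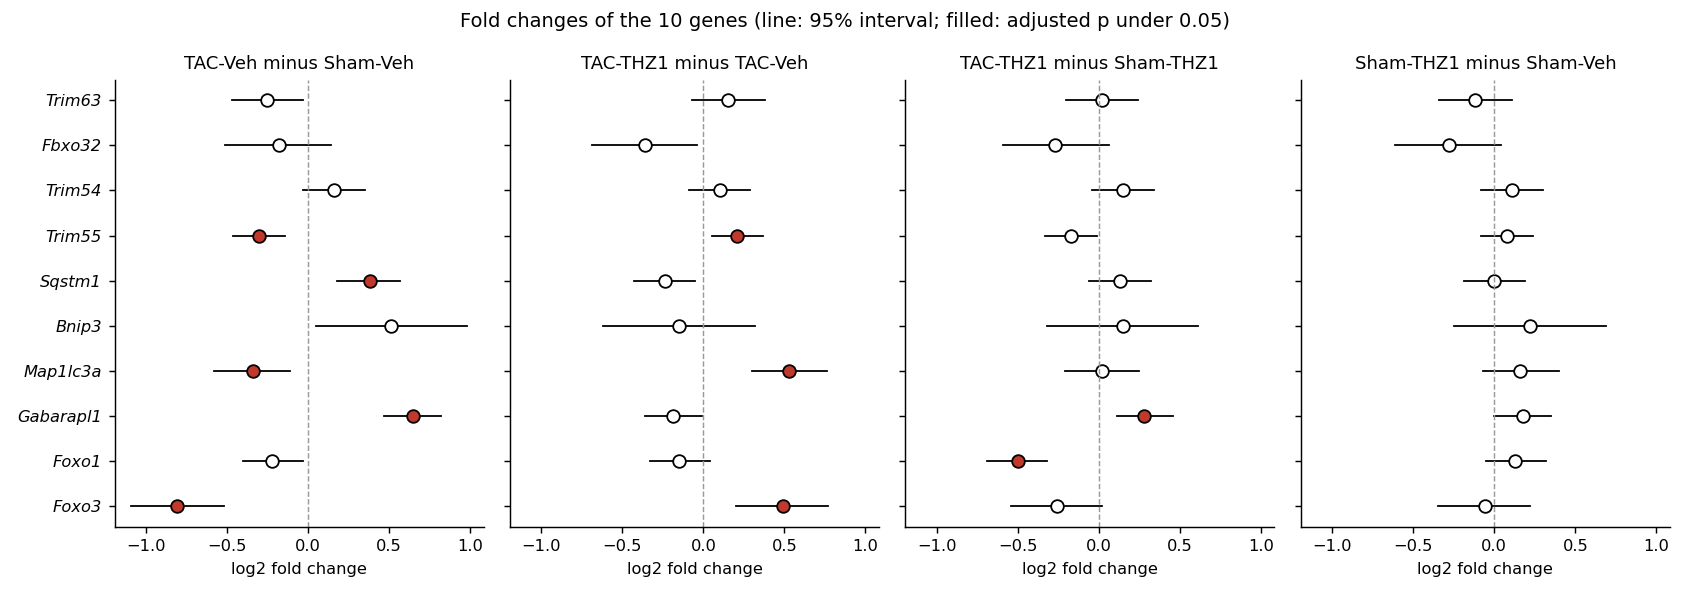
Log2 fold changes of the 10 genes in 4 comparisons (horizontal axes), with lines for the 95% interval and filled points for an adjusted p under 0.05 in limma. The first panel has 5 filled points, the second 3, the third 2 and the last none.

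The MuRF family of muscle RING-finger ligases binds the sarcomere, the contractile unit of the muscle cell. Trim63 (MuRF1, ENSMUSG00000028834, chromosome 4, 133871035 to 133885544 on NCBIM37, which is mm9) had 4225, 4599, 4712 and 4831 normalized counts in Sham-Veh and 4913, 3197, 3630 and 3882 in TAC-Veh. In TAC-THZ1 it had 4054, 4701, 3759 and 4737, and in Sham-THZ1 4381, 4032, 4417 and 4110. The TAC-Veh libraries spread on both sides of the sham values, with replicate 1 above all of them and the other 3 below the lowest Sham-Veh value. The log2 fold change with TAC was -0.25 (SE 0.11), which missed the threshold in limma (adjusted p 0.0645). Leaving out replicate 1 of TAC-Veh gave -0.37 (adjusted p 0.00287), and the log2 fold change of TAC-THZ1 over TAC-Veh went from 0.15 (adjusted p 0.29) to 0.27 (adjusted p 0.0255) and the interaction described below to 0.39 (adjusted p 0.0412). Leaving out replicate 2 of TAC-Veh moved both the other way, to -0.16 (adjusted p 0.22) with TAC and 0.06 (adjusted p 0.688) for TAC-THZ1 over TAC-Veh.

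Fbxo32 (atrogin-1, ENSMUSG00000022358, chromosome 15, 58011634 to 58046433) is the substrate-binding subunit of an SCF-type ligase. It had 1884, 2303, 1881 and 1792 normalized counts in Sham-Veh and 1484, 1667, 1722 and 2066 in TAC-Veh, which overlapped. In Sham-THZ1 the values were 1688, 1521, 1675 and 1558, all below the lowest Sham-Veh value. TAC-THZ1 gave 1359, 1428, 909 and 1814, and replicate 3 was the lowest of all 16 libraries. None of the comparisons passed with all libraries: the log2 fold change was -0.18 with TAC (SE 0.15, adjusted p 0.351), -0.36 for TAC-THZ1 over TAC-Veh (adjusted p 0.0833) and -0.28 for Sham-THZ1 over Sham-Veh (adjusted p 0.773). Without replicate 3 of TAC-THZ1, the value for TAC-THZ1 over TAC-Veh was -0.18 (adjusted p 0.269). It was -0.51 (adjusted p 0.015) without replicate 4 of TAC-THZ1 and -0.44 (adjusted p 0.0498) without replicate 1 of TAC-Veh, both past the threshold. Neither atrogene was called higher in a comparison that used all 16 libraries, and the 95% intervals of their log2 fold change with TAC were -0.47 to -0.03 for Trim63 and -0.51 to 0.14 for Fbxo32.

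Trim55 (MuRF2, ENSMUSG00000060913, chromosome 3, 19544460 to 19591599), which associates with microtubules and the sarcomere, was the ligase that passed. It had 1181, 1224, 1205 and 1365 normalized counts in Sham-Veh and 1057, 862, 1034 and 1104 in TAC-Veh, without overlap. The log2 fold change was -0.30 (SE 0.08, adjusted p 0.0048 in limma), and the call held under all 28 alternatives. TAC-THZ1 had 1094, 1138, 1305 and 1143, which overlapped TAC-Veh in replicate 1 and lay at the threshold, with a log2 fold change of 0.21 over TAC-Veh (SE 0.08, adjusted p 0.0494). That call was lost under 18 of 28 alternatives, including without replicate 2 of TAC-Veh (0.13, adjusted p 0.174) and without replicate 3 of TAC-THZ1 (0.16, adjusted p 0.145).

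Trim54 (MuRF3, ENSMUSG00000062077, chromosome 5, 31419085 to 31440003), which stabilises microtubules, was the most abundant MuRF gene per kilobase. Before division by exon length, Trim54 and Trim63 had similar means in Sham-Veh (4692 and 4592). Their annotated exons span 1436 and 2842 bases. Trim54 had 4731, 4709, 4397 and 4931 normalized counts in Sham-Veh and 5032, 5064, 5197 and 4970 in Sham-THZ1, where every library lay above every Sham-Veh library. TAC-Veh had 5463, 4391, 5731 and 5427, and TAC-THZ1 had 5583, 6351, 4684 and 5978. Its log2 fold changes were 0.16 with TAC (adjusted p 0.168), 0.10 for TAC-THZ1 over TAC-Veh (adjusted p 0.412) and 0.11 for Sham-THZ1 over Sham-Veh (adjusted p 0.883), none of them past the threshold. Without replicate 2 of TAC-Veh the value with TAC was 0.24 (adjusted p 0.0279). Within the family, Trim54 made up 58.6% ± 1.56 of the 3 genes' sum per kilobase in Sham-Veh and 65.4% ± 2.52 in TAC-Veh (SD, n = 4), with ranges of 56.8% to 60.5% and 62.1% to 68.3%. Trim63 made up 29.0% ± 1.40 and 24.5% ± 2.69, with ranges of 27.3% to 30.7% and 21.8% to 28.2% that overlapped, and Trim55 12.5% ± 0.356 and 10.2% ± 0.472. For Trim54, Trim63 and Trim55 in turn, the shares were 64.3%, 24.8% and 10.9% in TAC-THZ1 and 61.3%, 25.9% and 12.8% in Sham-THZ1. The Sham-THZ1 shares of Trim54 (60.7% to 62.0%) and Trim63 (25.0% to 26.7%) also lay outside the Sham-Veh ranges. The shares of a family are tied by their sum, so these are not separate results. The normalized counts of Trim63 overlapped between the sham groups and were not called (adjusted p 0.923 in limma). How often shares lay apart in other families was not tallied. A share compares the genes with each other within 1 library and does not depend on the size factor.

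Of the other ligases of striated muscle, 20 genes with the members left out, 3 rose and 9 fell with TAC, beside 21.4% and 23.6% of all genes, with a median log2 fold change of -0.16. No test set a list against other genes here or for the lists that follow. Asb15, a substrate receptor of cullin-5 ligases in muscle, averaged 2211 ± 135 normalized counts under Sham-Veh and fell to 693 ± 238 with TAC (SD, n = 4, log2 fold change -1.73, adjusted p 1.06e-06), and Klhl38 fell from 815 ± 149 to 414 ± 51.8 (-0.96, adjusted p 0.00194). Kbtbd5, also named Klhl40, which stabilises thin-filament proteins, rose by 0.66 on the log2 scale (adjusted p 3.75e-05), and Fbxo40, a muscle F-box protein that targets an insulin receptor substrate, rose by 0.52 (adjusted p 0.000263). In TAC-THZ1 against TAC-Veh, 5 of the 20 were higher and 3 lower (median 0.05). There Asb15 was higher (log2 fold change 0.81, adjusted p 0.00207) and Fbxo40 lower (-0.33, adjusted p 0.0128).

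Cargo receptors hold what is to be degraded. Sqstm1 (p62, ENSMUSG00000015837, chromosome 11, 50012868 to 50024329) binds ubiquitin and Atg8-type proteins and accumulates as protein when autophagy slows. Its RNA stood at 9736, 9555, 8926 and 9485 normalized counts in Sham-Veh and at 9785, 8925, 9282 and 9817 in Sham-THZ1. TAC-Veh had 12074, 11952, 12164 and 12698, all above every sham library and close together (coefficient of variation 2.69%). It rose with TAC by 0.38 on the log2 scale (SE 0.09, 1.30-fold, adjusted p 0.00301 in limma), and by 0.35 to 0.42 under the alternatives.

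TAC-THZ1 gave Sqstm1 values of 10202, 11282, 8201 and 12093, so the 4 libraries ran from below the sham range to the level of TAC-Veh. The log2 fold change over TAC-Veh was -0.24 (SE 0.09) and narrowly missed the threshold in limma (adjusted p 0.0535). It passed under 6 of 28 alternatives, among them DESeq2 (adjusted p 0.0455) and quantile normalization (adjusted p 0.00674). Without replicate 3 of TAC-THZ1 it was -0.13 (adjusted p 0.155), and TAC-THZ1 then exceeded Sham-THZ1 by 0.24 (adjusted p 0.0208) rather than by 0.13 (adjusted p 0.306). Nbr1, a receptor related in build to Sqstm1, went the other way with TAC, with a log2 fold change of -0.16 (adjusted p 0.00983). The ratio of Sqstm1 to Nbr1 per kilobase was 5.37 ± 0.342 for Sham-Veh and 5.27 ± 0.246 for Sham-THZ1, against 7.79 ± 0.149 for TAC-Veh and 6.78 ± 0.847 for TAC-THZ1 (SD, n = 4).

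Bnip3 (ENSMUSG00000078566, chromosome 7, 146082519 to 146101202), a mitochondrial outer-membrane protein that marks mitochondria for autophagy and is induced by low oxygen, had a library far from the rest. It had 4046, 3898, 4033 and 4188 normalized counts in Sham-Veh and 10633, 4545, 4823 and 4768 in TAC-Veh. Every TAC-Veh library lay above every Sham-Veh library, but replicate 1 lay at more than the sum of any other pair in its group. The log2 fold change of 0.51 (SE 0.22) did not pass in limma (adjusted p 0.0671), while DESeq2 gave 0.62 (adjusted p 0.0186) and edgeR 0.61 (adjusted p 0.0385). Without replicate 1 it was 0.22 (adjusted p 0.23), and without replicate 2 it was 0.63 (adjusted p 0.0423). In Sham-THZ1 the values were 4996, 5293, 4098 and 4517, and in TAC-THZ1 7401, 5127, 3893 and 4973, where replicate 1 was again highest. The difference between TAC-THZ1 and TAC-Veh was -0.15 (adjusted p 0.65), and it turned to 0.14 (adjusted p 0.478) without replicate 1 of TAC-Veh. The metallothionein Mt1, which binds metal ions, was also highest in replicate 1 of TAC-Veh, where it had 7918 normalized counts against 1921, 2322 and 1388 in the other 3. In TAC-THZ1 it was 2711 in replicate 1 and 2741 in replicate 2, so there it did not single out the library highest for Bnip3.

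The level of Bnip3 is uncertain for another reason. Of its 2031 windows of 40 exon bases, the read length, 51.3% also occur elsewhere in the NCBIM37 genome, chiefly at chr14:44842747-44844289, where nothing is annotated, at chr14:45216371-45217922, the pseudogene Gm16439, and at chr3:144390953-144392298. How reads with several matches were counted was not given in the sources used here, and the part of this in the values of Bnip3 was not tested. The share was 1.74% for Sqstm1, 0.129% for Foxo1 and 0 for the other 7 genes. The related receptor Bnip3l, also named Nix, showed a small rise with TAC of 0.21 on the log2 scale (adjusted p 0.0179) and was not called in TAC-THZ1 against TAC-Veh (-0.10, adjusted p 0.263).

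Of the 17 other receptors of selective autophagy and mitophagy, 4 rose and 5 fell with TAC (median -0.14), and 2 were higher and none lower in TAC-THZ1 than in TAC-Veh (median 0.08). Pink1, the kinase that starts the Parkin route of mitophagy, had the largest fall of the list. Its means were 15457 ± 401 normalized counts for Sham-Veh, 8743 ± 1460 for TAC-Veh and 13070 ± 1698 for TAC-THZ1 (SD, n = 4), with log2 fold changes of -0.84 with TAC (adjusted p 1.85e-05) and 0.59 for TAC-THZ1 over TAC-Veh (adjusted p 0.00116). Calcoco1, a receptor for the endoplasmic reticulum and Golgi, fell by 0.62 on the log2 scale with TAC (adjusted p 0.000113). Stbd1, a glycogen receptor, rose by 0.73 (adjusted p 0.00252), and Tex264, a receptor for the endoplasmic reticulum, by 0.52 (adjusted p 0.000119).

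The Atg8-type proteins are joined to lipid on the autophagosome and fall into an LC3 branch and a GABARAP branch. Map1lc3a (LC3A, ENSMUSG00000027602, chromosome 2, 155102033 to 155103809) had 7020, 7340, 7288 and 7601 normalized counts in Sham-Veh and 6796, 4656, 6917 and 5032 in TAC-Veh. All TAC-Veh libraries were lower, but replicates 1 and 3 only slightly so. It fell by 0.34 on the log2 scale (SE 0.11, 0.788-fold, adjusted p 0.0178 in limma). It was no longer called without replicate 2 (-0.24, adjusted p 0.0656) or replicate 4 (-0.28, adjusted p 0.0523) of TAC-Veh, or in a fit of these 2 groups alone (adjusted p 0.0613).

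With THZ1, Map1lc3a had 8411, 9371, 7289 and 8309 normalized counts in TAC-THZ1, all above the highest TAC-Veh value. The log2 fold change over TAC-Veh was 0.53 (SE 0.11, 1.44-fold, adjusted p 0.00238), with 0.43 to 0.62 under the alternatives, all of which kept the call. In Sham-THZ1 the values were 8426, 8449, 8091 and 7790, also above every Sham-Veh library, with a log2 fold change of 0.16 (adjusted p 0.833). TAC-THZ1 and Sham-THZ1 differed by 0.02 (95% interval -0.21 to 0.25). The exons of Map1lc3a lie within the span of Pigu on the opposite strand, and the counting used strand.

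Gabarapl1 (ENSMUSG00000030161, chromosome 6, 129483218 to 129492349), a GABARAP-branch gene known as a FoxO target, had the largest of the rises that were called. It had 2216, 2224, 2235 and 2183 normalized counts in Sham-Veh and 3833, 3457, 3518 and 3091 in TAC-Veh. On the log2 scale the rise was 0.65 (SE 0.08, 1.56-fold, adjusted p 1.84e-05 in limma), and it stayed between 0.60 and 0.70 under the alternatives. TAC-THZ1 had 3516, 3081, 2559 and 3108, which overlapped TAC-Veh, with a log2 fold change of -0.19 (adjusted p 0.108), or -0.10 (adjusted p 0.331) without replicate 3 of TAC-THZ1. This difference passed without replicate 4 of TAC-Veh (-0.24, adjusted p 0.041) and without replicate 1 of TAC-THZ1 (-0.25, adjusted p 0.0324). Sham-THZ1 had 2721, 2542, 2341 and 2426, above every Sham-Veh library (0.18, adjusted p 0.728). TAC-THZ1 was higher than Sham-THZ1 by 0.28 (adjusted p 0.0236), a call lost without replicate 3 or 4 of Sham-THZ1 or replicate 1 or 4 of TAC-THZ1, with adjusted p up to 0.0848.

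Both genes moved against each other with TAC, and the make-up of the family changed. Per kilobase, Map1lc3a made up 52.8% ± 0.847 of the 5 Atg8-type genes in Sham-Veh and 42.8% ± 2.87 in TAC-Veh (SD, n = 4), and Gabarapl1 10.7% ± 0.266 and 17.2% ± 1.66. In TAC-THZ1 they made up 51.6% ± 2.34 and 12.7% ± 0.746, and in Sham-THZ1 54.3% ± 0.438 and 11.1% ± 0.452. The ratio of Gabarapl1 to Map1lc3a was 0.192 to 0.211 in Sham-Veh and 0.340 to 0.497 in TAC-Veh, with 0.220 to 0.280 in TAC-THZ1, so the ranges of the 3 groups did not overlap. This ratio restates the values of the 2 genes given above and is no further result. How often ratios of other genes lay apart was not tallied. Of the other family members, Gabarapl2 rose with TAC (0.25, adjusted p 0.0312), and Gabarap (0.19, adjusted p 0.138) and Map1lc3b (-0.11, adjusted p 0.313) were not called.

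**Figure D3:**
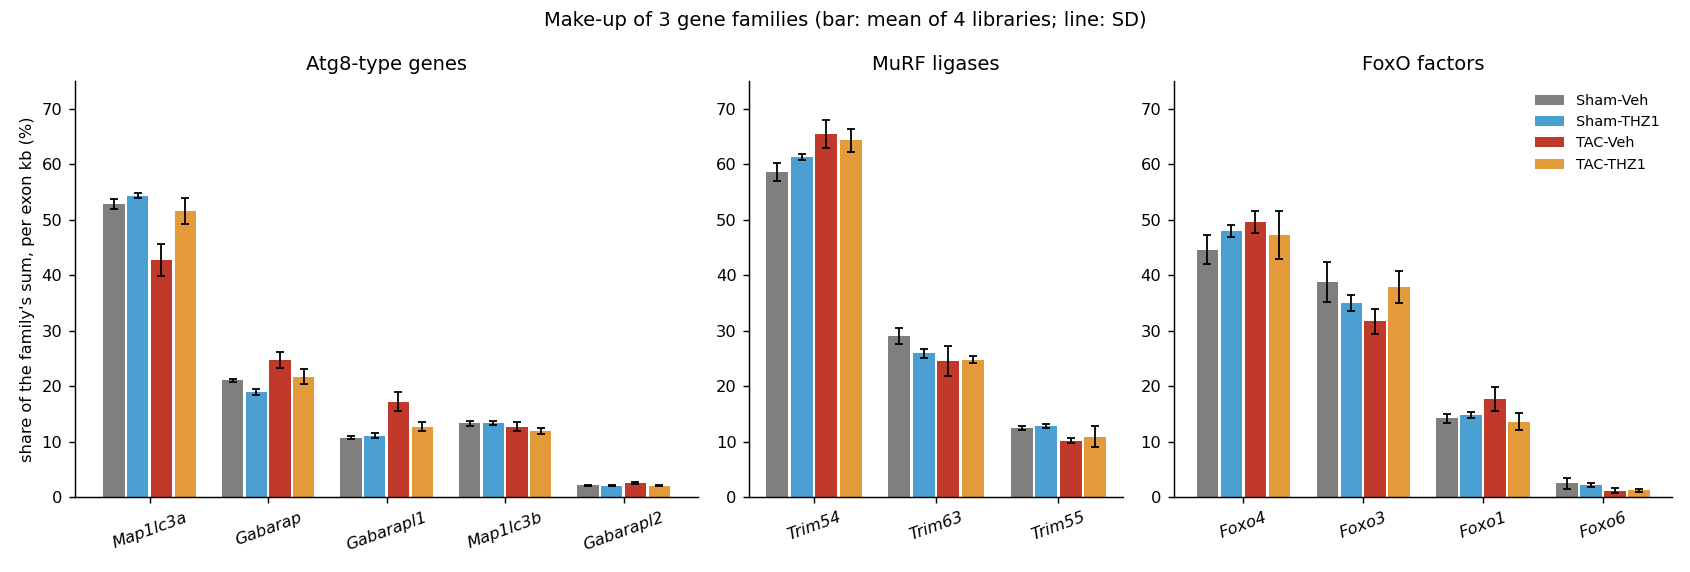
Share of each gene in the summed level per exon kilobase of its family (vertical axes, %), for the Atg8-type genes, the MuRF ligases and the FoxO factors, by group; bars are means of 4 libraries and lines their SD. Map1lc3a falls from 52.8% in Sham-Veh to 42.8% in TAC-Veh and Gabarapl1 goes from 10.7% to 17.2%, while the TAC-THZ1 bars of these 2 genes lie at 51.6% and 12.7%. Among the MuRF ligases, Trim54 stands at 64.3% in TAC-THZ1, near its 65.4% in TAC-Veh.

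The enzymes that conjugate Atg8-type proteins and the factors that supply membrane, 18 genes with the 3 family genes above, had 2 genes that rose and 4 that fell with TAC (median -0.06). Atg9a, a scramblase carried on the vesicles that seed the membrane, fell by 0.40 on the log2 scale (adjusted p 0.000297), and Atg2a, which transfers lipid, by 0.55 (adjusted p 0.00015). Wipi1, which binds the phosphoinositide on the forming membrane, rose by 0.20 (adjusted p 0.0153). In TAC-THZ1, 3 of the 18 were higher than in TAC-Veh and none lower, Atg9a among them (0.20, adjusted p 0.0447). Of 12 genes for the initiating kinase and lipid kinase complexes, 3 rose and 4 fell with TAC (median -0.14). Ulk1, the initiating kinase, fell by 0.61 (adjusted p 0.000492), and Pik3r4, a subunit of the lipid kinase complex, by 0.32 (adjusted p 0.00603). Becn1, another subunit of that complex, rose by 0.42 (adjusted p 0.000173), and 9430023L20Rik, which is Atg101, a partner of Ulk1, by 0.64 (adjusted p 0.00056). Becn1 was the sole gene of these 12 called in TAC-THZ1 against TAC-Veh, where it was lower (-0.21, adjusted p 0.0345).

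The lysosome completes autophagy. Of 18 lysosomal genes, 12 rose and 2 fell with TAC, with a median log2 fold change of 0.32, and in TAC-THZ1 against TAC-Veh 1 was higher and 7 were lower (median -0.22). Ctsk, a collagen-cleaving cathepsin also made by fibroblasts, averaged 123 ± 16.4 normalized counts for Sham-Veh, 427 ± 173 for TAC-Veh and 146 ± 16.5 for TAC-THZ1 (SD, n = 4). The log2 fold changes were 1.71 with TAC (adjusted p 1.24e-05) and -1.46 for TAC-THZ1 over TAC-Veh (adjusted p 0.00024). Atp6v1h, a subunit of the proton pump, rose by 0.88 with TAC (adjusted p 7.8e-06) and was lower in TAC-THZ1 (-0.43, adjusted p 0.00619). Npc1, the lysosomal cholesterol exporter, and Mitf, a transcription factor of the TFEB family, fell by 0.96 (adjusted p 7.86e-06) and 0.88 (adjusted p 1.06e-06). Mitf was higher in TAC-THZ1 than in TAC-Veh by 0.67 (adjusted p 7.66e-05).

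Of the FoxO genes, Foxo3 was called lower with TAC under vehicle, and Foxo1 was called lower with TAC under THZ1. The estimates were negative for both genes under vehicle and under THZ1, and the interaction described below passed for neither in limma. Foxo3 (ENSMUSG00000048756, chromosome 10, 41901647 to 41996561) had 1961, 2752, 2198 and 2721 normalized counts in Sham-Veh and 1392, 1026, 1457 and 1650 in TAC-Veh, without overlap. It fell by 0.81 on the log2 scale (SE 0.13, 0.571-fold, adjusted p 0.000171 in limma), the largest change of the 10 genes in any comparison. TAC-THZ1 had 1988, 2239, 1699 and 1752, every library above the highest of TAC-Veh, with a log2 fold change of 0.49 (SE 0.13, 1.40-fold, adjusted p 0.0129). That call was lost in a fit of these 2 groups alone (adjusted p 0.0604) and with array weights (adjusted p 0.06). Sham-THZ1 had 2233, 2214, 2197 and 2508, within the Sham-Veh range.

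Foxo1 (ENSMUSG00000044167, chromosome 3, 52072259 to 52154031) had 679, 685, 637 and 709 normalized counts in Sham-Veh and 627, 539, 498 and 681 in TAC-Veh. With the drug it had 772, 746, 693 and 764 in Sham-THZ1 and 545, 569, 505 and 484 in TAC-THZ1. With vehicle the groups overlapped and the log2 fold change with TAC was -0.22 (adjusted p 0.0518, past the threshold under 5 of 28 alternatives, among them without replicate 1 of TAC-Veh, with -0.25 and adjusted p 0.0344). Under THZ1 the groups were apart, and TAC-THZ1 was lower than Sham-THZ1 (log2 fold change -0.50, SE 0.09, 0.706-fold, adjusted p 0.00154), a call that all alternatives kept. TAC-THZ1 and TAC-Veh differed by -0.15 (adjusted p 0.21), so Foxo1, unlike Foxo3, was not called higher with THZ1 in constricted hearts. The ratio of Foxo1 to Foxo3 per kilobase was 0.372 ± 0.0564 for Sham-Veh and 0.562 ± 0.0992 for TAC-Veh, with ranges of 0.323 to 0.449 and 0.444 to 0.682 that overlapped, and 0.423 ± 0.0246 for Sham-THZ1 and 0.357 ± 0.0227 for TAC-THZ1 (SD, n = 4). The mean ratio was thus higher with TAC under vehicle and lower with TAC under THZ1. Foxo4, which per kilobase was the most abundant of the family in every group, fell with TAC (-0.37, adjusted p 0.0151) and was not called in TAC-THZ1 against TAC-Veh (0.16, adjusted p 0.312). Before division by exon length, its mean in Sham-Veh was 1333 normalized counts, below the 2408 of Foxo3.

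Of 23 further FoxO relatives, regulators and canonical targets, 3 rose and 9 fell with TAC (median -0.13), and 4 were higher and 4 lower in TAC-THZ1 than in TAC-Veh (median 0.07). Igf1r, the receptor for insulin-like growth factor, rose by 0.99 with TAC (adjusted p 0.000192) and was lower in TAC-THZ1 than in TAC-Veh (-0.99, adjusted p 0.000598). Eif4ebp1, a brake on translation, rose by 0.64 (adjusted p 0.00241). Klf15, a glucocorticoid-responsive factor, fell by 0.70 (adjusted p 0.0201), and Foxo6 fell by 1.62 from 54.2 ± 19.9 normalized counts (adjusted p 0.000403).

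**Figure D4:**
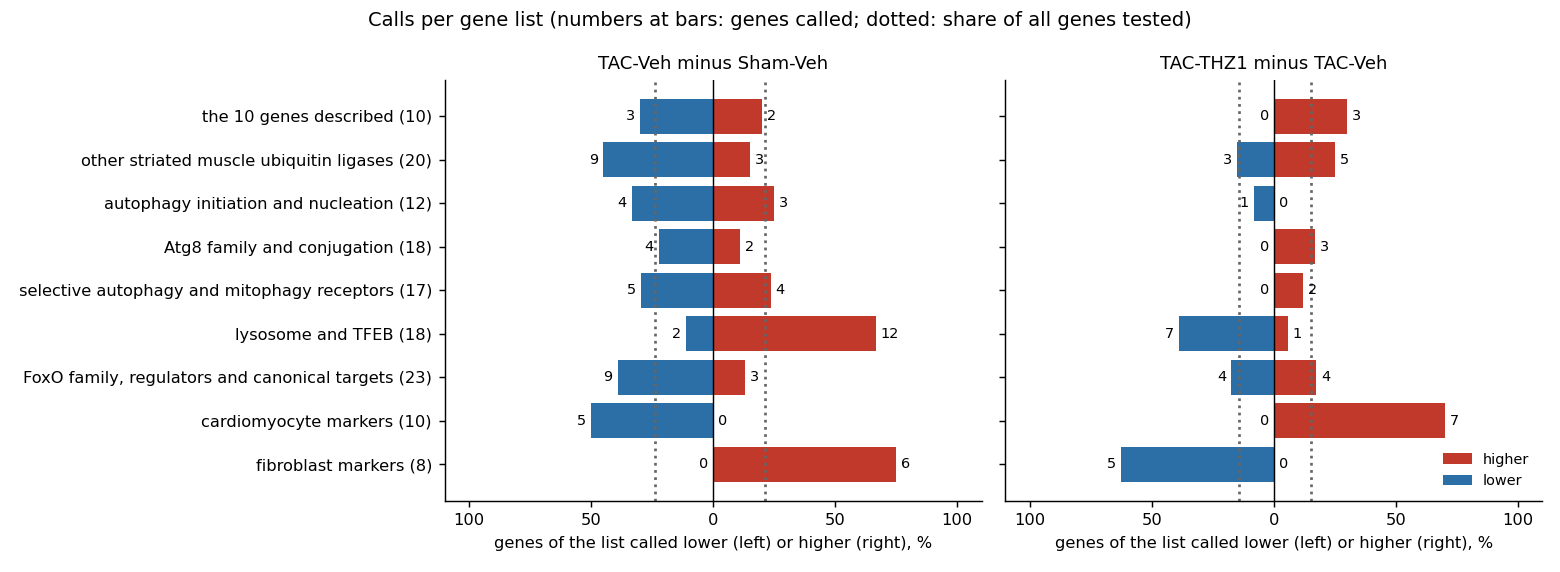
Share of each gene list called higher (right) or lower (left) in TAC-Veh against Sham-Veh and in TAC-THZ1 against TAC-Veh (horizontal axes, % of the list; list sizes in brackets), with the number of genes at each bar and dotted lines at the share over all 13331 genes. The lysosomal list has 12 genes higher with TAC, the cardiomyocyte markers have 5 lower and the fibroblast markers 6 higher.

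An interaction term tested whether THZ1 acted differently after TAC than after the sham procedure, as the change with THZ1 in TAC minus the change with THZ1 in sham. None of the 10 genes passed in limma, against 10.0% of all genes. An unadjusted p under 0.05 was found for 4 of the 10 and for 3618 of the 13331 genes tested. The estimates of those 4 were 0.55 for Foxo3 (adjusted p 0.0755), -0.36 for Gabarapl1 (adjusted p 0.0622), 0.37 for Map1lc3a (adjusted p 0.14) and -0.28 for Foxo1 (adjusted p 0.15). DESeq2 called 2 of the 10 genes, Foxo3 (0.55, adjusted p 0.045) and Gabarapl1 (-0.36, adjusted p 0.0382), and edgeR called none. The shares of all genes that DESeq2 and edgeR called were not tallied, so these counts have no background beside them.

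Levels of cell type markers moved with the same groups. In TAC-Veh, 5 of 10 cardiomyocyte markers fell and none rose, and their sum was 904490 to 1325079 normalized counts against 1757470 to 1902006 in Sham-Veh. It was 1847400 to 1896470 for Sham-THZ1 and 1483578 to 1846203 for TAC-THZ1. Of 8 fibroblast markers 6 rose with TAC, with sums of 54429 to 94539 in TAC-Veh against 28733 to 31860 in Sham-Veh. The sums were 28104 to 30840 for Sham-THZ1 and 30007 to 42604 for TAC-THZ1. Not called with TAC were the cardiomyocyte markers Tnnt2, Actc1, Myl2, Myl3 and Actn2, with log2 fold changes of -0.40 to -0.02. The fibroblast markers Pdgfra (0.25, adjusted p 0.0614) and Tcf21 (0.38, adjusted p 0.0727) were not called either. In TAC-THZ1 against TAC-Veh, 7 cardiomyocyte markers were higher and 5 fibroblast markers lower. Of 6 macrophage markers, which mark cells rich in lysosomes, Emr1 (0.66, adjusted p 0.0165) and Cd68 (0.52, adjusted p 0.0355) rose with TAC and none was called in TAC-THZ1 against TAC-Veh, with sums of 3678 to 4281 for Sham-Veh, 3467 to 4203 for Sham-THZ1, 4253 to 5426 for TAC-Veh and 3312 to 6023 for TAC-THZ1. Of 6 endothelial markers, 2 rose and 2 fell with TAC, and 1 was higher and 2 were lower, Pecam1 and Cdh5, in TAC-THZ1 than in TAC-Veh. No marker of these 4 lists was at 0 in all libraries. In bulk tissue, fewer cells of a type and less RNA per cell cannot be told apart. The part of either in the values of Map1lc3a, Foxo3, Trim55, Gabarapl1, Sqstm1 and the lysosomal genes was not tested.

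Across the 16 libraries, the genes with levels most like those of 4 members were listed by Pearson's r of log2 values, as a description, since the libraries share group and tissue make-up. Trim63 was closest to Fam134b, a receptor for autophagy of the endoplasmic reticulum (r 0.91), Sgcb (0.89) and Klf15 (0.88). Fbxo32 was closest to 1110008L16Rik (0.88), Pdcd4 (0.88) and Baz2b (0.87). Sqstm1 was closest to Nol3, a repressor of cell death (0.93), Golga4 (0.92) and Dync2li1 (0.92), and Bnip3 to Mt1 (0.91), Mustn1 (0.89) and Med7 (0.89). The values for Bnip3 rest on a range set by replicate 1 of TAC-Veh. Among the members, deviations from the group means went together most for Sqstm1 and Fbxo32 (r 0.85) and for Bnip3 and Gabarapl1 (0.77). In TAC-THZ1, replicate 3 was lowest for both Sqstm1 (8201) and Fbxo32 (909), and replicate 4 was highest for both (12093 and 1814). Replicate 1 of TAC-Veh was highest of its group for both Bnip3 (10633) and Gabarapl1 (3833). The part of these libraries in either r was not tested.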

How the data were processed

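The authors aligned 40-base single-end reads from a stranded library kit to mm9 with TopHat 2.1.1, assigned them to GENCODE genes by htseq-count, reverse-stranded, and normalized all mouse libraries in 1 run of DESeq2. The deposited signal is a normalized count per gene and library. Values were whole multiples of a step, and dividing by it gave whole reads (100% of values, within 0.001 reads) with size factors of 0.749 to 1.399. Log2(normalized count + 1) was fitted in limma 3.58.1 (R 4.3.3) as the main test, with a mean for each of the 4 groups, no covariates and eBayes with a trend, over 13331 genes with at least 10 in at least 4 libraries. Calls were made at a Benjamini-Hochberg adjusted p of 0.05, adjusted over all tested genes in each of the 5 contrasts. The recovered reads were tested with edgeR 4.0.16 (quasi-likelihood) and DESeq2 1.42.0 as alternatives. Replicate numbers pair no mice here, and the labels give no batch or date. Coordinates and exon lengths were taken from GENCODE on NCBIM37. A length joined all annotated exons of a gene, and which transcripts the heart used was not tested. The members and lists were chosen with earlier results of these data known. Named genes were the 10 members, stated family genes, of each list the 2 genes with the largest rise and the 2 with the largest fall among those called with TAC, and for 4 members the 3 genes with the highest correlation. Mt1 beside Bnip3, Nppa and libraries that stood apart were chosen after values were seen. Figures were drawn with Matplotlib 3.10.9.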

Additional observations from a re-analysis of the deposited data

Results flagged for a closer look

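Of 40 sets of 4 libraries (10 genes in 4 groups), 2 held a library far from the other 3 of its group by Dixon's criterion, where chance gives about 5%. Replicate 1 of TAC-Veh had 10633 normalized counts of Bnip3, with a gap of 0.954 of the group's range to the next library. Replicate 4 of Sham-THZ1 had 2508 normalized counts of Foxo3, with a gap of 0.885 of the range, while still within the Sham-Veh values.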

How the results depend on the processing

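Over 1390 comparisons of a gene's fold change under an alternative with its reported value, 17 of the 50 pairs of gene and contrast kept direction and call under every alternative, 4 lost a call, 21 gained one and 8 turned sign, all 8 of them uncalled. The fold thresholds of the study's methods (log2 fold changes of 1 with TAC and 0.89 with THZ1 in TAC) left 0 of the 10 genes called with TAC and 0 for TAC-THZ1 against TAC-Veh. Leaving out each library gave 5 to 7 calls with TAC, 2 to 5 for TAC-THZ1 against TAC-Veh (5 without TAC-Veh replicate 1), 1 to 3 for TAC-THZ1 against Sham-THZ1 (1 without Sham-THZ1 replicate 3 or 4 or TAC-THZ1 replicate 1 or 4), 0 in sham and 0 to 2 for the interaction. A fit of the compared groups alone gave 1 call for TAC-THZ1 against TAC-Veh, 3 in sham and 4 for TAC-THZ1 against Sham-THZ1; array weights gave 1, 5 for the last of these and 2 for the interaction, and DESeq2 gave 2 for the interaction. The shares of all genes called under the alternatives were not tallied, and the cause of these shifts was not tested.

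Same-numbered mice did not deviate together (16 pairs, r -0.431 to 0.117, 1 pair over 0.1), and the replicate block moved the interaction calls from 0 to 1. Its other counts stayed within 1.5 times the reported ones. Signs turned for differences near 0. With array weights the values were 0.02 for Bnip3 (TAC-THZ1 over TAC-Veh) and 0.02 for the interactions of Fbxo32 and Trim54. Quantile normalization gave 0.01 for the interaction of Trim54 and -0.02 for Sqstm1 in sham, where edgeR gave 0. Leaving out libraries gave, for TAC-THZ1 over TAC-Veh, -0.32 to 0.14 for Bnip3. For Sham-THZ1 over Sham-Veh it gave -0.02 to 0.03 for Sqstm1 and -0.15 to 0.01 for Foxo3. For TAC-THZ1 over Sham-THZ1 it gave -0.03 to 0.08 for Trim63, -0.02 to 0.29 for Bnip3 and -0.04 to 0.09 for Map1lc3a. For the interaction it gave -0.23 to 0.10 for Fbxo32 and -0.09 to 0.08 for Trim54. The lowest read count of any of the 10 genes in a library was 447, and the effect of depth on the calls was not tested.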
